A study of Solanum lycopersicum with 6 samples.

Results

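Of the 10 tomato loci listed as jasmonate ZIM-domain (JAZ) repressors, 9 were found among the 34688 gene models of the count table, by matching the locus part of each identifier. The remaining locus, Solyc08g036620, was not analysed here. The loci are named by their ITAG4.1 identifiers, because no table in hand pairs these with gene symbols. The number after "Solyc" is the chromosome, so the 9 loci lie on chromosomes 1, 3, 6, 7, 8, 11 and 12. JAZ sequences are not shown, because the reference table used here matched 0 of the 10 loci.

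The libraries came from roots of 7-day-old wild-type Solanum lycopersicum cv. M82 seedlings, cut about 3 cm from the tip. The 3 whole libraries were made from undigested roots. The 3 protoplasted libraries were made from cells freed of their walls by 2 h of digestion at 25 °C with Cellulase R10, Cellulase RS, Macerozyme R10 and Pectolyase in a mannitol solution. No mock digestion of whole roots is named in the labels, so the enzymes, the mannitol solution, the incubation time and the freeing of the cells cannot be told apart. The methods describe many primary roots per sample for the isolation of protoplasts, and give no number for the whole roots. Nothing in the labels says whether the 3 samples of a group were grown separately, so the p-values measure the spread between these samples, which may be technical.

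JAZ proteins hold jasmonate responses off. They bind MYC transcription factors through their Jas motif and, through their TIFY motif, recruit the adaptor NINJA and TOPLESS co-repressors. When jasmonoyl-isoleucine rises, for example after wounding, the F-box protein COI1 takes up the hormone together with a JAZ protein, the JAZ protein is degraded and the MYC factors are released. In Arabidopsis and tomato, many JAZ genes are themselves switched on by MYC factors, which makes JAZ transcripts a commonly used early mark of jasmonate response as well as a brake on it.

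Read depth was similar between the groups, at 5662566 to 5790082 estimated counts in whole and 5198513 to 5666102 in protoplasted libraries. The 3′ tag libraries give about one read per transcript whatever its length, so levels were not divided by length and are given as CPM, counts scaled to a fixed total on TMM-normalized library sizes. For a locus with 0 counts, the upper limit was 0.479 to 0.519 CPM in whole libraries and 0.543 to 0.626 CPM in protoplasted ones (3 counts per library), which accounts for counting error only. The estimated counts of all 9 JAZ loci were whole numbers, within 0.001, in all 6 libraries. The 50 loci named as the end of the exodermal trajectory were used as markers of the tissue. The study removed genes it called induced by protoplasting before it built that trajectory. A locus strongly higher in protoplasts could therefore not be on the list, and the direction of these loci is in part fixed by that removal. All 50 had counts in every whole library, and their summed level was 9320 to 25435 CPM in whole and 443 to 1059 CPM in protoplasted libraries. Of the 49 tested, 48 were called lower in protoplasts (adjusted p under 0.05 in edgeR's quasi-likelihood test), beside 18.7% of all genes tested. None of the 50 was at 0 in all protoplasted libraries. Fewer cells of a type and less RNA per cell cannot be told apart in bulk samples. The part of this shift in the JAZ values was not tested.

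JAZ transcripts were more abundant in protoplasts. Summed over the 9 loci, there were 462, 514 and 470 counts in whole replicates 1, 2 and 3 and 1150, 1066 and 1398 in protoplasted replicates 1, 2 and 3. This corresponds to 80.2 ± 5.95 CPM in whole and 237 ± 17.1 CPM in protoplasted roots (SD, n = 3), a 2.96-fold difference in summed level. Within the replicate numbers the ratio was 3.25, 2.56 and 3.12. Without Solyc07g042170, the locus with the most counts, the remaining 8 loci summed to 36.3 ± 4.19 and 120 ± 2.27 CPM (SD, n = 3), a 3.31-fold difference. Sums over chosen loci are descriptions and carry no test.

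**Figure D1:**
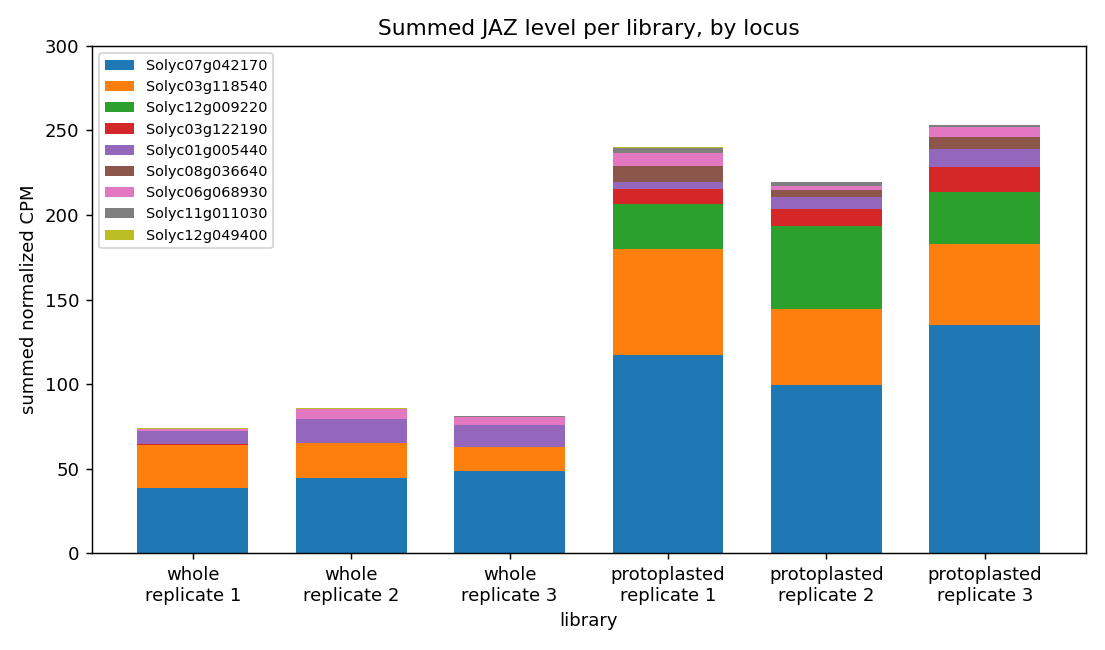
Summed normalized CPM of the 9 JAZ loci (y axis) in each of the 6 libraries (x axis), with 1 colour per locus. The whole libraries reach 73.8 to 85.6 CPM and the protoplasted libraries 219 to 253 CPM, and Solyc12g009220 is visible in the protoplasted libraries alone.

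Of the 9 loci, 7 passed the filter on low counts and were tested. The edgeR quasi-likelihood test, with p-values adjusted by Benjamini-Hochberg over 15966 genes, placed 5 of these 7 higher in protoplasts (adjusted p under 0.05), namely Solyc07g042170, Solyc03g118540, Solyc12g009220, Solyc03g122190 and Solyc08g036640. Among all genes tested, 17.0% were called higher and 18.7% lower. With all 6 libraries and no replicate block, none of the 7 was lower at the adjusted or at an unadjusted p under 0.05 in edgeR, limma-voom or DESeq2. The median log2 fold change was 1.42 over the 7 loci, with or without loci at 0 set to their bound, and 0.02 over all genes tested. In the 5 called loci each protoplasted library lay above each whole library, as in 25.1% of all genes tested. The 5 called loci fell into a pair already abundant in whole roots and 3 that were at or near 0 there. These 3 passed the filter through their protoplasted libraries alone. A locus near 0 in whole roots could thus be tested only if it was higher in protoplasts. The count of 5 of 7 and the median are therefore in part set by the filter.

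**Figure D2:**
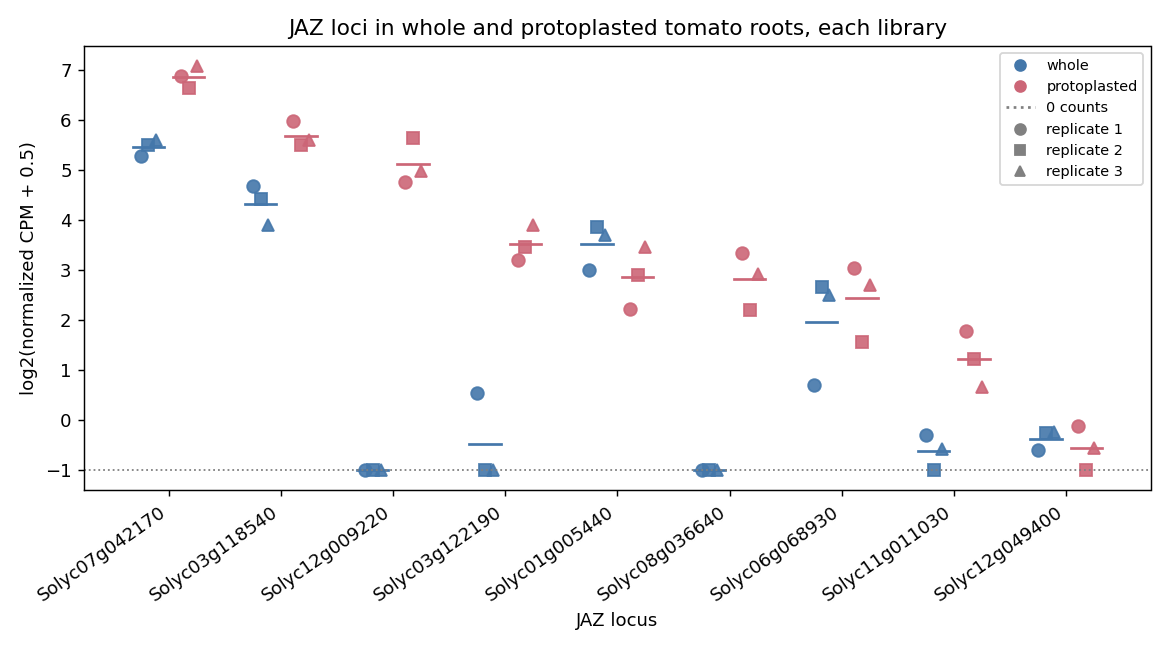
Level of each JAZ locus (x axis) in each library, as log2(normalized CPM + 0.5) (y axis). Points are libraries, shapes are replicate numbers, short lines are group means on this scale, and the dotted line marks 0 counts. Solyc12g009220 and Solyc08g036640 sit on the dotted line in all whole libraries and above it in all protoplasted ones.

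Solyc07g042170 was the most abundant JAZ locus in both conditions. Its level was 38.7, 44.6 and 48.4 CPM in whole replicates 1 to 3 and 117, 99.6 and 135 CPM in protoplasted replicates 1 to 3. The groups did not overlap, with the lowest protoplasted library at 99.6 CPM and the highest whole library at 48.4 CPM. The log2 fold change was 1.42 (standard error 0.21, adjusted p = 0.0018 in edgeR's quasi-likelihood test), or 2.67-fold.

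Solyc03g118540 had the second highest mean in both conditions, although in protoplasts its range overlapped that of Solyc12g009220. It had 25.1, 20.8 and 14.5 CPM in whole replicates 1 to 3 and 62.6, 44.6 and 48.0 CPM in protoplasted replicates 1 to 3. The whole libraries spread more widely for this locus than for Solyc07g042170, yet did not reach the protoplasted range. The log2 fold change was 1.36 (standard error 0.27, adjusted p = 0.0056 in edgeR's quasi-likelihood test), or 2.565-fold. Both abundant loci thus rose, and the difference between their log2 fold changes was not tested.

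Solyc12g009220 had the widest contrast. It had 0 counts in all 3 whole libraries, and 127, 239 and 171 counts in protoplasted replicates 1 to 3, equal to 26.5, 49.2 and 31.0 CPM. A locus without a detected transcript in whole roots thus had the third highest mean among the JAZ loci in protoplasts. With 3 counts in each whole library as the floor, it was at least 71.2-fold higher in protoplasts (adjusted p = 3.5e-04 in edgeR's quasi-likelihood test).

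Solyc08g036640 likewise had 0 counts in all whole libraries. Protoplasted replicates 1 to 3 held 46, 20 and 39 counts, or 9.60, 4.11 and 7.06 CPM. Against the same floor it was at least 13.9-fold higher in protoplasts (adjusted p = 0.0014 in edgeR's quasi-likelihood test).

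Solyc03g122190 had 6 counts in whole replicate 1 and 0 in whole replicates 2 and 3. In protoplasted replicates 1 to 3 it had 42, 51 and 80 counts, or 8.77, 10.5 and 14.5 CPM. A single whole library thus supplies all counts of that group, and the protoplasted libraries lay well above it. The log2 fold change was 5.00 (standard error 0.84, adjusted p = 0.0028 in edgeR's quasi-likelihood test). Without whole replicate 1 the other whole libraries are at 0, and the locus was at least 22.1-fold higher in protoplasts against the floor of 3 counts per library.

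A pair of loci was tested and not called. Solyc01g005440 had 7.51, 13.99 and 12.6 CPM in whole replicates 1 to 3 and 4.17, 6.99 and 10.5 CPM in protoplasted replicates 1 to 3. The groups overlapped, and the log2 fold change was -0.65 (standard error 0.41, adjusted p = 0.25 in edgeR's quasi-likelihood test). Within each replicate number the protoplasted library was the lower one, at 0.556, 0.500 and 0.832 of the whole library, and with the replicate number as a block the adjusted p was 0.079 (unadjusted 0.0428), still above the threshold. Without protoplasted replicate 3 the log2 fold change was -1.06, with an unadjusted p of 0.0402 in edgeR and no call after adjustment.

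Solyc06g068930 had 1.12, 5.83 and 5.19 CPM in whole replicates 1 to 3 and 7.72, 2.47 and 5.98 CPM in protoplasted replicates 1 to 3. The groups overlapped and the ratio within replicate numbers ran from 0.423 to 6.90. The log2 fold change was 0.42 (standard error 0.63, adjusted p = 0.64 in edgeR's quasi-likelihood test), and it changed sign, to -0.034, without whole replicate 1.

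**Figure D3:**
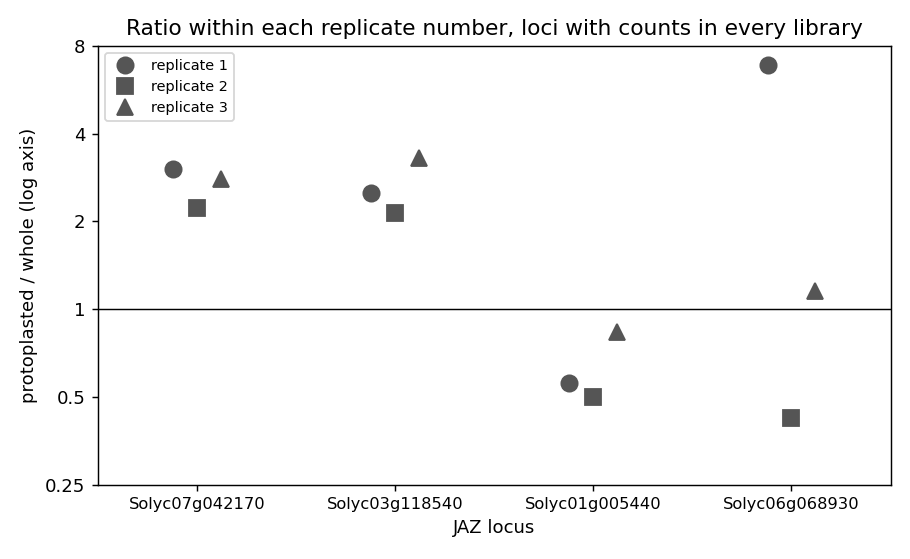
Ratio of normalized CPM, protoplasted over whole, within each replicate number (y axis, log axis) for the 4 tested JAZ loci with counts in every library (x axis); the line marks a ratio of 1. Solyc07g042170 and Solyc03g118540 lie above 2 in all 3 pairs, Solyc01g005440 lies below 1 in all 3, and Solyc06g068930 spans 0.423 to 6.90.

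The other 2 loci had too few counts for the test. Solyc11g011030 had 2, 0 and 1 counts in whole replicates 1 to 3 and 14, 9 and 6 in protoplasted replicates 1 to 3. The counts of the groups did not overlap. The ratio of summed counts, scaled by library size, was 11.5 with a 95% exact interval of 3.56 to 59.0 that covers counting error only. It was called higher when genes with any count, or with at least 1 CPM in at least 3 libraries, were tested, with an adjusted p of 0.021 and 0.016 in edgeR. Solyc12g049400 had 1, 2 and 2 counts in whole and 2, 0 and 1 counts in protoplasted replicates 1 to 3, which is at the floor in both conditions, so that no fold is given.

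The order of the loci therefore changed between conditions. In whole roots, Solyc07g042170, Solyc03g118540, Solyc01g005440 and Solyc06g068930 followed each other in level without overlap between neighbours, and the other 5 loci lay at or below 0.959 CPM in every library. In protoplasts Solyc07g042170 again led without overlap. The ranges of Solyc03g118540 and Solyc12g009220 overlapped, at 44.6 to 62.6 and 26.5 to 49.2 CPM, so their order is not resolved. Below them the ranges of Solyc03g122190, Solyc01g005440, Solyc08g036640 and Solyc06g068930 overlapped from neighbour to neighbour.

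As a share of all JAZ counts, Solyc07g042170 took 54.7% ± 4.22 in whole and 49.2% ± 3.95 in protoplasted roots (SD, n = 3), and Solyc03g118540 took 25.4% ± 8.11 and 21.8% ± 3.78 (SD, n = 3). Solyc12g009220 went from 0 to 15.2% ± 6.25 and Solyc03g122190 from 0.433% ± 0.750 to 4.72% ± 1.04 (SD, n = 3). Solyc01g005440 went from 14.02% ± 3.35 to 3.03% ± 1.21 (SD, n = 3), with no overlap between the groups in share although its level was not called. Shares sum to the whole, so a larger share of some loci lowers that of others.

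Replicates differed in which locus was high. Among the protoplasted libraries, replicate 3 was highest for Solyc07g042170, Solyc03g122190 and Solyc01g005440, and replicate 2 was highest for Solyc12g009220. Replicate 1 was highest for Solyc03g118540, Solyc08g036640, Solyc06g068930 and, on 14, 9 and 6 counts, Solyc11g011030. Solyc12g049400 was at the floor and is not ranked. The level of Solyc12g009220 in replicate 2 stood beside the lowest protoplasted levels of Solyc07g042170, Solyc03g118540, Solyc08g036640 and Solyc06g068930.

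The other jasmonate loci were taken from lists of identifiers drawn up from general knowledge of the tomato genome; the files and tables in hand do not annotate them. The list of further JAZ loci held 3, of which 2 were in the table and neither passed the filter. Solyc08g036660, named after its values were seen, had 0 counts in all whole libraries and 7, 24 and 39 counts in protoplasted replicates 1 to 3. It was at least 8.99-fold higher against the floor of 3 counts per library, and was called higher in edgeR under the same looser filters (adjusted p = 6.9e-04 and 0.0049). Its identifier is close to that of Solyc08g036640, which also went from 0 counts to a detectable level. Solyc01g009740 had 2 counts in protoplasted replicate 1 and 0 in the other libraries.

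Among 7 loci listed for jasmonate synthesis, 6 were in the table and tested. Of these, 4 were called higher and 1 lower in protoplasts, beside 17.0% and 18.7% of all genes tested, and the median log2 fold change was 1.49. The locus not called had a log2 fold change of -0.81 (unadjusted p = 0.035 in edgeR's quasi-likelihood test). Each of its protoplasted libraries lay below each whole library, as in 4092 of the 15966 genes tested. Solyc04g079730 had 0.639, 0.999 and 2.77 CPM in whole replicates 1 to 3 and 21.1, 25.9 and 52.5 CPM in protoplasted replicates 1 to 3. The log2 fold change was 4.49 (standard error 0.58, adjusted p = 0.0010 in edgeR's quasi-likelihood test). This locus passed the filter because of its protoplasted libraries. Solyc03g122340 had 5.27, 3.997 and 4.84 CPM in whole and 54.3, 98.9 and 122 CPM in protoplasted replicates 1 to 3, with a log2 fold change at 4.28 (standard error 0.36, adjusted p = 2.8e-04 in edgeR's quasi-likelihood test). Both loci were thus expressed at a low level in every whole library, unlike Solyc12g009220 and Solyc08g036640, and rose more than the abundant JAZ loci in fitted log2 fold change, a difference that was not tested. The locus called lower, Solyc10g011660, had 58.8, 65.0 and 92.3 CPM in whole and 18.6, 15.4 and 25.4 CPM in protoplasted replicates 1 to 3. Its log2 fold change was -1.86 (standard error 0.28, adjusted p = 0.0017 in edgeR's quasi-likelihood test).

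Among 9 loci listed for jasmonate signalling outside the JAZ family, 8 were in the table and 6 were tested. None was called by edgeR, limma-voom or DESeq2. Among all genes tested, edgeR called 17.0% higher and 18.7% lower. At an unadjusted p under 0.05 the count was 0 in edgeR, 1 in limma-voom and 0 in DESeq2. In 2 of the 6 each protoplasted library lay above each whole library, as in 25.1% of all genes tested. The median log2 fold change of the 6 loci was 0.11. With the replicate number as a block, Solyc08g076930 was higher (log2 fold change 0.67, adjusted p = 0.039) and Solyc07g063410 lower (log2 fold change -0.85, adjusted p = 0.0069) in edgeR. Without whole replicate 1, Solyc07g063410 was also called lower, at a log2 fold change of -1.29 and an adjusted p of 0.028 in edgeR.

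**Figure D4:**
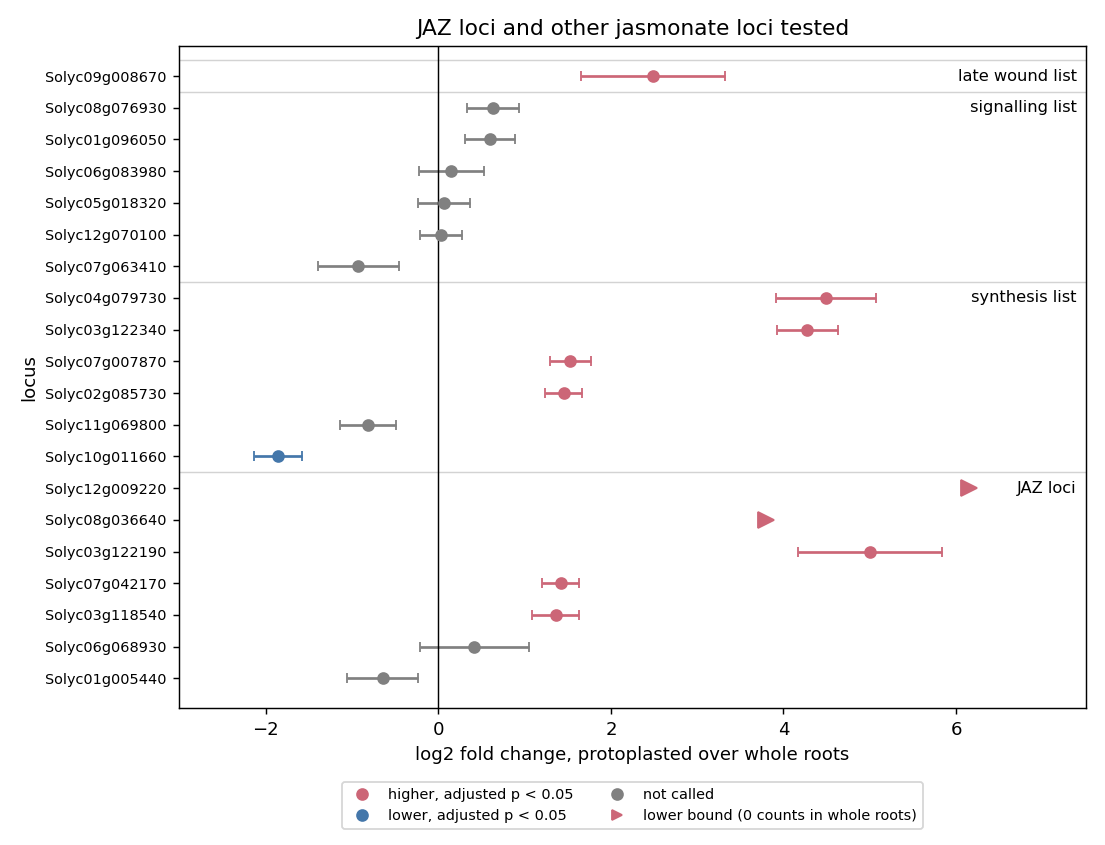
Log2 fold change, protoplasted over whole roots (x axis), of the tested loci of the JAZ, synthesis, signalling and late wound lists (y axis). Points are edgeR estimates with standard error bars, coloured by call, and arrowheads are lower bounds for the 2 JAZ loci at 0 counts in whole roots. JAZ and synthesis loci hold most of the plotted points and most of the called ones, and the 6 signalling loci lie between -0.93 and 0.63. The late wound locus and several of the called JAZ and synthesis loci passed the filter because of their protoplasted libraries. Among all genes tested, 17.0% were called higher and 18.7% lower.

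The list named late wound held 5 loci, and their timing was not tested. All were in the table, 4 had at most 3 counts in every library and 1 was tested. Solyc09g008670 had 11, 0 and 2 counts in whole and 23, 19 and 20 counts in protoplasted replicates 1 to 3. Its log2 fold change was 2.49 (standard error 0.83, adjusted p = 0.046 in edgeR's quasi-likelihood test). This locus passed the filter because of its protoplasted libraries. The call was lost with library size only and in each of the 5 fits that left out a library other than whole replicate 1, where the adjusted p ranged from 0.0821 to 0.123, and the log2 fold change was 4.41 without whole replicate 1.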

How the data were processed

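The authors trimmed the reads with Trim Galore 0.6.6, ran kallisto 0.46.2 on read 1 against the ITAG4.1 transcriptome, and deposited estimated counts per gene model without normalization, with 1 column for each of 6 libraries (3 whole, 3 protoplasted). The methods mention pooling of sequences ahead of trimming and describe no molecular identifiers or strand option. Columns were assigned to samples by their labels.

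Estimated counts were rounded, filtered with filterByExpr (at least 10 counts, total of at least 15), scaled by TMM and analysed in edgeR 4.0.16 (quasi-likelihood, no replicate block) in R 4.3.3, with Benjamini-Hochberg adjustment over 15966 genes and a threshold of 0.05. Standard errors were derived from the F statistic. For groups with 0 counts in every library, folds were taken against a floor of 3 counts per library, and for groups with 1 to 3 counts in all the ratio of summed counts is given with its exact interval. Both filter and normalization can change a call. Alternatives were other normalizations and filters, limma-voom (limma 3.58.1), DESeq2 1.42.0, a replicate block and each library left out in turn. The tests were run on simulated counts with the same dispersion for every gene and no replicate effect. That setting is simpler than these data, so the check does not cover the replicate differences.

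Deviations of same-numbered libraries from their group means correlated at 0.429, 0.114 and 0.538. The numbers, which come from the sample labels, were therefore taken as pairs in the ratios within replicate numbers and in the replicate block. No label says that libraries with the same number share a batch, and correlations between different numbers were not computed. The pairing is thus an assumption. The main fit did not use the pairs, and its log2 fold changes and adjusted p are unpaired. Libraries of a group differed by more than counting noise (chi-square over its degrees of freedom 13.4 or more).

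All JAZ loci were named, and of the other lists at most the 2 called loci with the largest absolute log2 fold change per direction, besides loci whose call changed. The JAZ members and the lists were chosen with earlier results of these data known.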

Additional observations from a re-analysis of the deposited data

How the results depend on the processing

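The 5 JAZ calls kept their direction and an adjusted p under 0.05 under all 13 alternatives, with adjusted p up to 0.0245 for Solyc03g118540. Of 91 values of the 7 tested JAZ loci under the alternatives, 90 kept direction and call, and 1 was the change of sign of Solyc06g068930 without whole replicate 1 (-0.034), where its range without a library was -0.034 to 0.77. Solyc11g011030, not tested otherwise, had a log2 fold change of 3.38 with genes of any count and 3.39 under the filter of 1 CPM in 3 libraries. The replicate block changed no JAZ call; it called 1 signalling locus higher and 1 lower, and changed no other call of a listed locus. Over all genes, 3985 were higher and 3876 lower with the block, against 2711 and 2981 without it. The number of all genes called higher ranged from 1522 to 2747 without a library, and fell to 1726 without whole replicate 2 and to 1522 without protoplasted replicate 2.

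For further JAZ loci, 1 was called higher under each of these filters, and 0 to 1 in the fits without a library. For the signalling list, 0 to 1 were called lower in those fits. For the late wound list, 0 were called with library size only and 0 to 1 without a library. With library size only, higher genes were 35.4% of calls against 47.6%, and the median over all genes was -0.14 in place of 0.02 in log2 fold change. The JAZ sum was 0.00844% of counts in whole and 0.0224% in protoplasted libraries, and 0.00383% and 0.0113% without the locus with the most counts, by construction. Depth limits loci with few counts, of which 2 JAZ loci could not be tested.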

Other observations

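Over the 6 libraries, the genes outside the lists whose log2 CPM was most like that of Solyc07g042170 had Pearson r of 0.9986, 0.9975 and 0.9964. The first was Solyc10g052880, with 73.2, 89.9 and 101 CPM in whole and 357, 280 and 493 CPM in protoplasted replicates 1 to 3. Of the 15897 genes compared, 600 had an r above 0.95. Among the JAZ loci, r with Solyc07g042170 was 0.98 for Solyc08g036640, 0.96 for Solyc12g009220, 0.91 for Solyc03g122190, 0.88 for Solyc03g118540, 0.46 for Solyc06g068930 and -0.48 for Solyc01g005440. These values describe libraries that share the difference between the groups, and no gene named here has an annotation in hand.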
